A study of Bos taurus with 10 samples.

Results

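Cytosolic ribosomal protein genes were described in skeletal muscle of 10 Hanwoo, the native cattle of Korea kept for beef. A gene was a member if its probe set carried 1 gene symbol in the platform annotation and the symbol had the form used for proteins of the 40S (RPS) or 60S (RPL) subunit. RPSA and the P proteins were included and the RPS6K kinases were left out. This gave 65 of 9155 named genes, 24 of the 40S and 41 of the 60S subunit, read by 90 probe sets. The brightest probe set stood for each gene.

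The samples came from the longissimus dorsi, the long back muscle, and formed 1 group with no treatment label. An age of about 2 years was given for 1 of the 10 samples, and sex and trait values were not analysed here. Poly(A) RNA was hybridized to 1 one-colour GeneChip Bovine Genome Array per sample. The study's stated design relates expression to beef traits of the same animals, and here the genes are described by their signal, its spread between animals and its covariation.

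The ribosome joins a small 40S subunit, which binds messenger RNA and reads its codons, to a large 60S subunit, which forms the peptide bonds. Each cytosolic ribosome is built from ribosomal RNA and a fixed set of proteins, and most of these are present in a single copy. Their messenger RNAs are abundant, short, and begin with a tract of pyrimidines, the TOP motif, through which mTOR signalling and LARP1 set their translation together. In adult striated muscle the paralog RPL3L takes the place of RPL3 in part of the ribosomes.

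Signals are given as log2(signal + 16) after quantile normalization, which gives all arrays the same distribution. A difference of 1 on this scale is a doubling for bright genes. Genes were tested where their mean exceeded 6.98, the median over the probe sets that are not controls, which left 6271 genes and 63 of the 65 members. The median signal of an array was between 111 and 134 in the deposited intensities. Muscle markers were bright in all animals: the 9 measured fibre genes, CKM and ACTA1 among them, had means from 15.58 to 16.05. The array of animal 5 stood apart. Control RNAs with a poly(A) tail, added to each sample, gave a 3' minus 5' log2 signal of 2.80 on this array, while the remaining 9 gave 1.09 to 1.38. Results are therefore given with and without animal 5.

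Nearly all members gave signals near the top of the array's range. The 63 tested members had means from 12.18 to 15.34 with a median of 14.43, against a median of 9.24 over all 6271 tested genes. Of the 100 brightest named genes 24 were members, as were 48 of the 200 brightest, while members made up 0.71% of named genes. Each probe set has its own response, so no order among members is read from these values. Many of these genes have near-identical processed copies in mammalian genomes, which a probe set may also read.

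Only RPS19 and RPL37 were dim. RPS19, a 40S protein needed to mature the small subunit's RNA, had 2 probe sets, and the brighter lay between 4.64 and 5.89 in 9 animals (median 5.49) and at 6.29 in animal 5. RPL37 had 1 probe set, which lay between 4.47 and 7.02 in 9 animals (median 5.79) and at 5.65 in animal 5. Both lay under the test's limit and were not tested. RPL15P, which stood at 14.64 ± 0.36 (SD, n = 10), is listed as a pseudogene in the ARS-UCD2.0 gene table.

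In animal 5 most members were lower than in any other animal, in both subunits. Animal 5 held the lowest value in 50 of 63 members (79.4%), against 27.6% of all tested genes and 43.8% of the 632 tested genes with a mean of at least 12.18, the lowest mean of a tested member. Both of these backgrounds include the members. The median difference between animal 5 and the mean of the other 9 was -1.14, a 2.20-fold lower signal. It was -0.06 over all tested genes and -0.17 over those as bright as the members. The difference was below -1 in 33 members (52.4%) and in 11.1% of all tested genes.

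**Figure D1:**
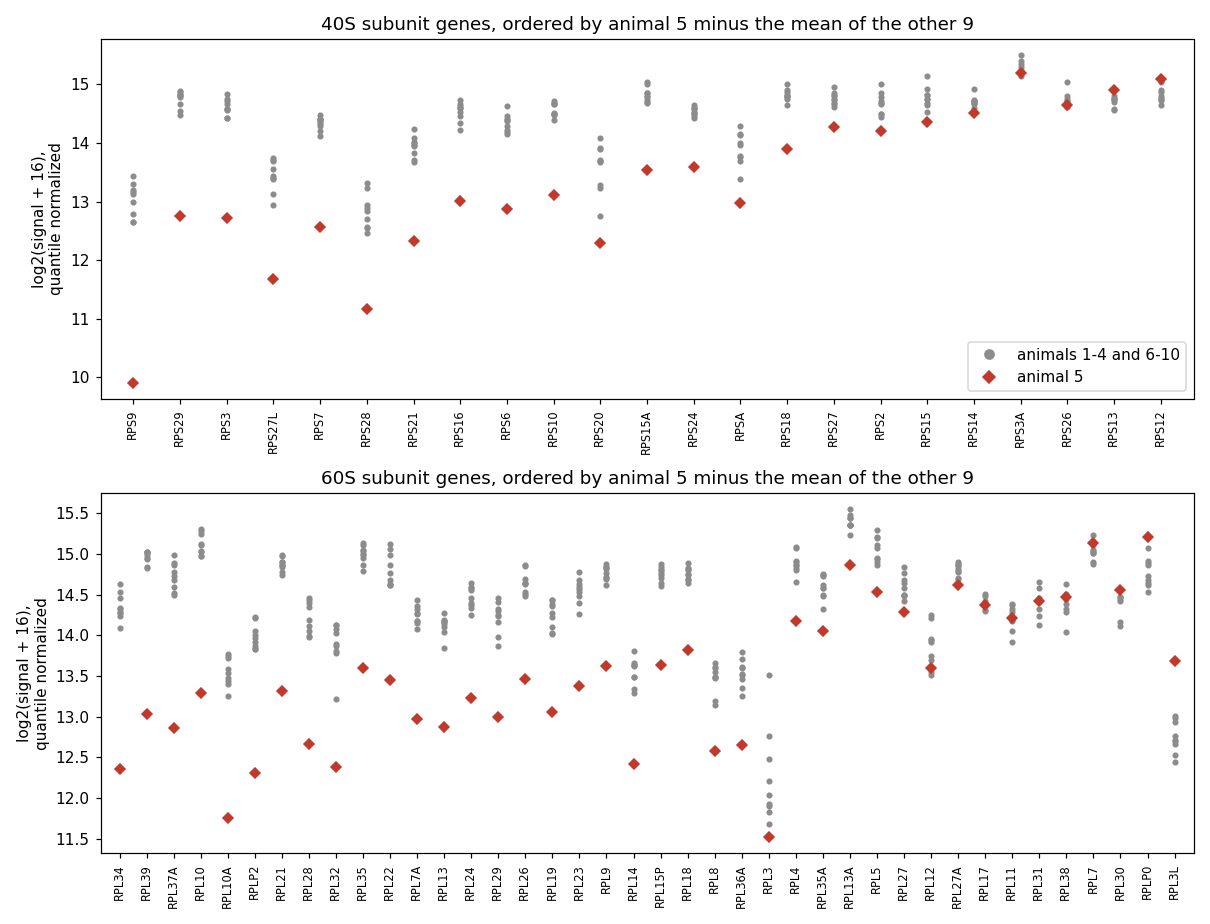
Log2(signal + 16) after quantile normalization of the 23 tested 40S genes (top) and 40 tested 60S genes (bottom). Each grey point is 1 of 9 animals and each red diamond is animal 5. Genes run from the largest deficit in animal 5 (RPS9 and RPL34, left) to those where it was highest (RPS12 and RPL3L, right), and animal 5 lay lowest in 50 of the 63.

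The drop was uneven between members. RPS9, which lies at the mRNA entry channel of the 40S subunit, spanned 12.65 to 13.43 in 9 animals (median 13.13) and stood at 9.91 in animal 5. The difference from the mean of the others was -3.13, an 8.73-fold lower signal. RPS29 spanned 14.49 to 14.89 (median 14.82) and stood at 12.75 in animal 5. RPL34 spanned 14.09 to 14.63 (median 14.32) and stood at 12.35. For these 3 genes the value of animal 5 was far outside the range of the other 9.

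At the other end, 11 of 63 members differed by less than 0.25 between animal 5 and the mean of the others. So did 1791 of all 6271 tested genes and 134 of the 632 as bright as the members. RPL17, at the exit of the peptide tunnel, spanned 14.30 to 14.51 in 9 animals (median 14.39) and was 14.37 in animal 5. RPS3A spanned 15.14 to 15.50 (median 15.25) and was 15.19 in animal 5. RPS26, at the mRNA exit, spanned 14.61 to 15.03 (median 14.70) and was 14.66 in animal 5. For these 3 genes animal 5 lay inside the range of the others. The highest value lay in animal 5 for 4 of 63 members, namely RPL3L, RPLP0, RPS12 and RPS13. It did so for 1321 of all 6271 tested genes and 173 of the 632 as bright. For RPLP0 the other bright probe set was lowest in animal 5. RPS12 was 15.09 there, just above the highest of the others at 15.05, and RPS13 was 14.91 against 14.90.

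Members of 1 structural site also took different values. In the P stalk, which recruits elongation factors, RPLP2 was 12.31 in animal 5 against 13.83 to 14.23 in the others. RPLP0 was 15.21 against 14.53 to 15.08, and RPL12 was 13.60, inside the range of 13.52 to 14.24. The RPLP0 value depends on the probe set, as its other bright probe set was 13.93 against 14.03 to 14.40. Of the 5S particle proteins, which also bind MDM2 when ribosome assembly fails, RPL5 was 14.53 in animal 5, under the range of 14.86 to 15.29. RPL11 was 14.22 and inside its range of 13.92 to 14.38.

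At the tunnel exit RPL39 was 13.04 in animal 5 (14.83 to 15.02 in the others), RPL35 was 13.60 (14.79 to 15.13), RPL26 was 13.46 (14.48 to 14.87) and RPL19 was 13.06 (14.01 to 14.43). These 4 lay below all other animals, whereas RPL17 above and RPL31, at 14.43 within 14.13 to 14.66, did not. At the mRNA entry RPS3 was 12.72 (14.43 to 14.84) and RPS2 was 14.21 (14.45 to 15.01). Both were below the others, with differences from their means of -1.90 for RPS3 and -0.48 for RPS2.

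At the mRNA exit RPS28 was 11.17 in animal 5 (12.47 to 13.31), RPS21 was 12.32 (13.68 to 14.24) and RPSA was 12.97 (13.39 to 14.29). RPS14 was 14.51 against 14.55 to 14.93, a difference of -0.19 from the mean of the others. RPS6, the substrate of S6 kinase, was 12.87 against 14.15 to 14.62. RPS27A, RPL23A and RPLP1, fixed as members of these groups, are not analysed here.

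Paralogs of 1 protein also took different values. RPL3 spanned 11.68 to 13.51 in 9 animals (median 12.04) and was 11.52 in animal 5, the lowest of all 10. RPL3L spanned 12.44 to 13.01 (median 12.71) and was 13.68 in animal 5, the highest of all 10 and 1.91-fold over the mean of the others. Animal 5 was thus at opposite ends of this pair. RPL3L was also higher in animal 5 with the deposited scaling (0.80) and with centring on the median (0.90). RPS27 was 14.27 in animal 5 (14.62 to 14.96 in the others) and its paralog RPS27L, which p53 induces, was 11.68 (12.94 to 13.74). Both were below the others, with differences from their means of -1.77 for RPS27L and -0.49 for RPS27.

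**Figure D2:**
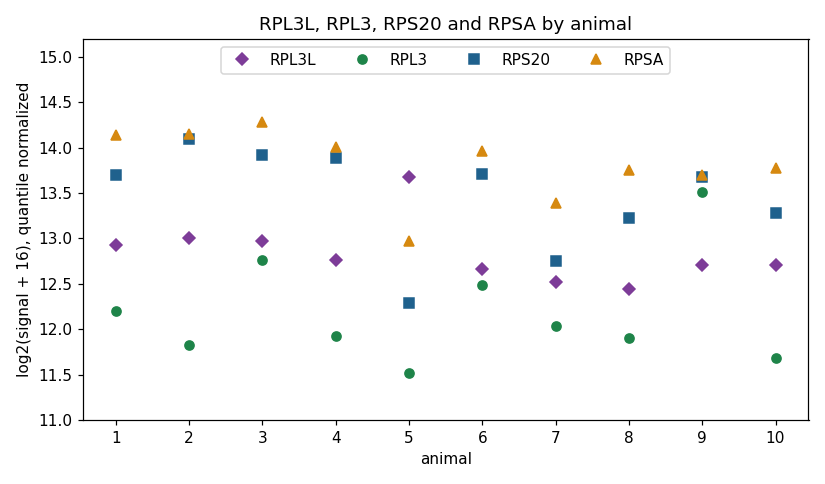
Log2(signal + 16) after quantile normalization in each of the 10 animals for RPL3L (diamonds), RPL3 (circles), RPS20 (squares) and RPSA (triangles). RPL3L is highest in animal 5 at 13.68, RPL3 is highest in animal 9 at 13.51, and RPS20 and RPSA are lowest in animals 5 and 7.

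Without animal 5 the ribosomal protein genes differed little between animals. Over the 9 animals the median SD of members was 0.15, against 0.31 over all tested genes and 0.20 over those as bright as the members. With all 10 animals it was 0.40, against 0.36 and 0.31. In 61 of 63 members the SD over 9 animals was below the median of all tested genes, as in 513 of the 632 as bright. The smallest were those of RPS24 (0.07), RPL17 (0.07), RPL27A (0.08) and RPL39 (0.08). RPL39 had one of the largest deficits in animal 5 while spanning 14.83 to 15.02 in the others. The small values depend partly on normalization: with the deposited scaling the median SD over 9 animals was 0.27 for members and 0.31 for all tested genes. Members had a median level of 14.43, against 13.27 for those as bright, and normalization by rank limits differences at the top of the scale. These sets are thus not matched in level.

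RPL3, RPS20, RPS28, RPL32, RPS9, RPSA, RPS27L and RPL12 were the 8 of 63 members with an SD above 0.25 over the 9 animals. Such an SD was found in 4209 of all 6271 tested genes and 203 of the 632 as bright as the members. RPL3, a core protein of the peptidyl transferase centre, had the largest at 0.58. Animal 9 had 13.51 and animal 3 had 12.76, and the remaining 7 spanned 11.68 to 12.48. RPS20 had an SD of 0.42, from 12.75 in animal 7 to 14.09 in animal 2. RPSA, which is also known as the laminin receptor, had 0.28, from 13.39 in animal 7 to 14.29 in animal 3. RPL32, named here after its values were seen, had 0.28, from 13.22 in animal 7 to 14.13 in animal 10. Animal 7 was thus lowest among the 9 for these last 3 genes.

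Members leaned the same way within an animal. Among the 9 animals, animal 7 held the lowest value of 28 members (44.4%) and the highest of 0, while it was lowest in 10.4% of all tested genes. Animals 3 and 4 held the highest value of 16 and 15 members (25.4% and 23.8%), against 14.1% and 7.27% of all tested genes. Deviations were taken from each gene's mean over all 10 animals. The low values of animal 5 pull most of these means down and so raise the deviations of the other 9. A small deviation above 0 is therefore not read as a rise. The mean deviation of the 40S genes was 0.25 in animal 3, 0.23 in animal 4 and 0.19 in animal 2. It lay between 0.01 and 0.15 in animals 1, 6, 8, 9 and 10, at -0.09 in animal 7 and at -0.98 in animal 5. For the 60S genes it was 0.18 in animal 3, 0.16 in animal 4, -0.08 in animal 7 and -0.79 in animal 5. The difference between both means was largest in size in animal 5 at -0.19 and lay between -0.03 and 0.09 in the others.

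**Figure D3:**
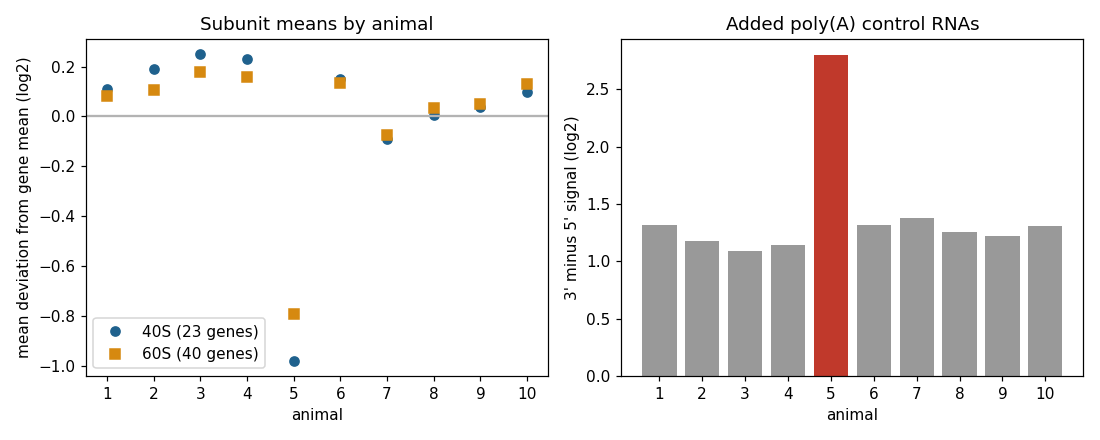
Left, mean deviation of the 23 tested 40S genes (circles) and 40 tested 60S genes (squares) from their means over 10 animals, on the log2 scale, for each animal. Right, 3' minus 5' log2 signal of the control RNAs with a poly(A) tail, 2.80 in animal 5 (red) and 1.09 to 1.38 elsewhere. Animal 5 is lowest in both subunit means, at -0.98 and -0.79, and animal 7 is next.

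Pairs of members correlated more closely than pairs of all tested genes, members included, as a description of these arrays. Over 10 animals the median r was 0.749 for pairs of 40S genes, 0.674 for pairs of 60S genes and 0.723 for a 40S with a 60S gene, against 0.004 for all pairs of tested genes. Over the 9 animals without animal 5 these medians were 0.437, 0.280 and 0.357, against 0.002 for all tested genes and -0.001 for those as bright as the members. Without animal 7 as well, the median for a 40S with a 60S gene was 0.225. It was 0.810 over the 9 animals with the deposited scaling, where genes as bright as the members also had a median of 0.134. Mitochondrial ribosomal proteins, which are encoded in the nucleus and serve a separate ribosome, had medians of 0.306 over 10 and 0.072 over 9 animals. The points of each pair share arrays, and the difference between gene groups was not tested.

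Large subunit genes rose with the small subunit genes across the 10 animals, but this rested on animal 5. The 40S score was the mean deviation of the tested 40S genes, in SD units. In limma, a linear model with variances moderated across genes, 25 of 40 genes of the 60S subunit rose with it at a Benjamini-Hochberg adjusted p below 0.05 and 0 fell. Of all 6248 genes outside the score 9.46% rose and 3.41% fell, and of the 609 as bright as the members 140 rose and 29 fell. The steepest 60S slope was that of RPL34, a rise of 0.63 on the log2 scale for each SD (SE 0.07, adjusted p = 0.000817 in limma). Slopes of RPL39, RPL37A, RPL10 and RPL10A followed, between 0.58 and 0.59. The 15 genes of the 60S subunit that did not pass included RPL17 (0.01, adjusted p = 0.905), RPL31 (0.01, adjusted p = 0.971), RPL5 (0.19, adjusted p = 0.0684) and RPL3L (-0.24, adjusted p = 0.105).

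The mirror fit on the 60S score gave 15 of 23 genes of the 40S subunit that rose and 0 that fell, against 9.85% and 3.93% of 6231 genes, and 131 and 31 of the 592 as bright as the members. RPS9 had the steepest slope at 0.995 (SE 0.09, adjusted p = 0.000567 in limma), then RPS29 at 0.64 and RPS3 at 0.61. RPS12, RPS13, RPS14, RPS15, RPS2, RPS26, RPS27 and RPS3A were the 8 that did not pass.

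Without animal 5, limma called 0 of 40 genes of the 60S subunit on the 40S score and 0 of 23 genes of the 40S subunit on the 60S score, at background shares of 0%. At an unadjusted p below 0.05 there were 1 gene, RPL32, and 2 genes, RPS20 and RPSA. Slopes were above 0 in 38 of 40 and 23 of 23 members, against 50.4% and 48.2% of all genes. On the 40S score over the 9 animals RPS20, against a score made without it, had the largest slope at 0.35 (SE 0.09, adjusted p = 0.991 in limma), then RPSA at 0.24 and RPL32 at 0.19. The slope of RPL3L, -0.24 over 10 animals, was 0.15 over 9, and neither passed.

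**Figure D4:**
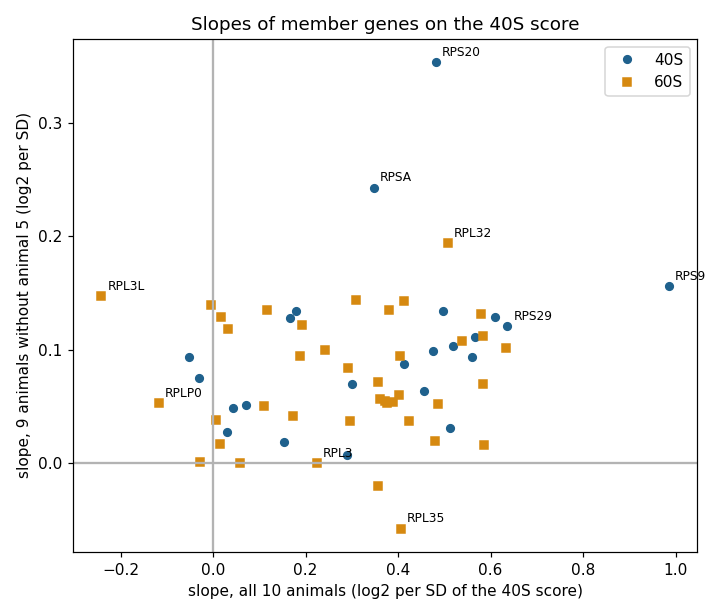
Slope of each tested member on the 40S score, in log2 per SD of the score, over all 10 animals (horizontal) and over the 9 without animal 5 (vertical); circles are 40S and squares 60S genes. RPS9 lies farthest right at 0.99 over 10 animals, and RPS20 is highest at 0.35 over 9, where 0 members passed the test.

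Most members were also called on a measure of the array itself. With the poly(A) control difference, in SD units, as covariate, 40 of 63 members fell and 1 rose in limma, against 11.1% and 4.35% of 6271 tested genes, and 167 and 38 of the 632 as bright as the members. RPS9 fell by 0.998 per SD (SE 0.09, adjusted p = 0.000447 in limma), RPL34 by 0.63 and RPS29 by 0.63. RPL3L was the gene that rose, at 0.27 (SE 0.08, adjusted p = 0.0458 in limma). It did not pass without any 1 of animals 1, 4, 6, 8, 9 and 10, nor with the deposited scaling or centring on the median. Without animal 5 limma called 0 members in either direction, 1, RPS20, had an unadjusted p below 0.05, and the RPL3L slope was -0.11. The poly(A) control difference and both scores take their extreme value in animal 5, so their parts cannot be told apart. Slopes and adjusted p-values on these measures with animal 5 included mainly set its array against the others. On the level of the hybridization controls, another array measure, 0 members rose or fell in limma (background 0% both ways) and 0 had an unadjusted p below 0.05.

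Other genes of the translation machinery were fitted on the same 40S score, with which 9.46% of all genes rose and 3.41% fell. The first group holds elongation factors and other transcripts of the TOP class. Of its 16 tested genes 3 rose and 1 fell in limma (25% called). The group is bright, with a median level of 13.56, and of the 609 genes as bright as the members 27.8% were called. FAU, which encodes the 40S protein eS30 fused to a ubiquitin-like protein, rose by 0.55 (adjusted p = 0.00152 in limma). EEF1A1, which delivers aminoacyl-tRNA to the ribosome, rose by 0.55 (adjusted p = 0.0188 in limma) and EIF3E by 0.39 (adjusted p = 0.00489 in limma). EEF2, which moves the ribosome along the message, fell by 0.25 (adjusted p = 0.0433 in limma) and was 15.00 in animal 5 against a mean of 14.21 in the others. On the 60S score the EEF2 slope was -0.25 and did not pass (adjusted p = 0.0528 in limma). EEF1A1 was 11.80 in animal 5 against a mean of 13.59.

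Of 41 ribosome biogenesis genes 6 rose and 4 fell with the 40S score (24.4% called, against 12.9% of all genes). NOP16 rose by 0.69 (adjusted p = 0.00121 in limma), IMP3 by 0.52 and EMG1 by 0.48, and RRN3, an initiation factor of RNA polymerase I, fell by 0.41 (adjusted p = 0.0252 in limma). Of 14 genes of TOP and mTOR control 1 rose, the S6 kinase gene RPS6KB1, by 0.30 (adjusted p = 0.018 in limma), a share of 7.14% and so below that of all genes. Of 67 mitochondrial ribosomal protein genes 22 rose and 1 fell (34.3% called). The differences between these lists were not tested. In animal 5 the median difference from the others was -0.40 for the 16 TOP class genes, -0.01 for the biogenesis genes, -0.05 for the TOP and mTOR control genes and -0.58 for the mitochondrial ribosomal proteins. Of 4 ribosomal proteins outside the rule 1 rose, FAU, and RACK1 (0.19, adjusted p = 0.0579 in limma), RPL26L1 (0.25) and RPL7L1 (0.18) did not pass. Without animal 5, 0 genes of any of these lists passed.

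On the markers of fat or connective tissue no member passed the test. Slopes over 10 animals were above 0 in 55 of 63 members on the adipocyte score, against 55.3% of all genes. On the connective tissue score they were above 0 in 58, against 54.4%. Without animal 5 these shares of members were 36.5% and 50.8%, against 50.6% and 50% of all genes. On the adipocyte score, from 6 tested markers such as FABP4 and ADIPOQ, 0 of 63 members rose or fell in limma, against 0.0319% and 0% of 6265 genes, and 1 had an unadjusted p below 0.05. This was RPL3, with a slope of 0.45 (SE 0.13, adjusted p = 0.383 in limma) and of 0.42 without animal 5 (adjusted p = 0.519). On the connective tissue score, from 13 tested markers, 0 members rose or fell, against 0.144% and 0% of 6258 genes. RPL3 was again the single member with an unadjusted p below 0.05, with a slope of 0.36 (adjusted p = 0.497 in limma). Without animal 5 limma called 0 members on either score, against 0.0319% of genes that rose with the adipocyte score, and 0.144% and 0.016% that rose and fell with the connective tissue score. In bulk muscle, fewer cells of a type and less RNA per cell cannot be told apart.

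Markers of other cells took mixed values in animal 5, where 27.6% of all tested genes had their lowest value. All 6 tested leukocyte markers were below the mean of the other animals, with a median difference of -0.88, and 4 (66.7%) were lowest there. These markers were dim, with a median level of 7.60 and a lowest of 6.98, at the test's limit, which limits their reading. All 13 connective tissue markers were below the mean of the other animals, with a median difference of -0.80, but 4 differed by less than 0.25. Of the 13, 4 (30.8%) were lowest in animal 5, near the share of all genes. Of the 6 adipocyte markers 5 were below the mean of the others (median -0.88) and 2 (33.3%) were lowest there. The sixth, the lipoprotein lipase gene LPL, was 13.47 in animal 5 against 10.90 to 12.83 in the others, the highest of all 10. The 4 endothelium markers had a median difference of -0.05, and 3 of them differed by less than 0.25, while ENG was at -0.83. The 6 smooth muscle markers had a median difference of -0.35, with MYH11 at 0.08, and 2 (33.3%) were lowest there. The 9 muscle fibre markers differed by less than 0.25, with a median of -0.0026. Their means of 15.58 to 16.05 lay at the top of the scale, where normalization by rank limits differences. They are therefore not set against the other cell types. The part of these cells in the member values of animal 5 was not tested.

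Probe sets of 1 gene disagreed in animal 5 for some members. Of 17 members with several probe sets, 13 had at least 2 above the test's limit, and in 6 of these the difference between animal 5 and the mean of the others differed in sign between probe sets. For RPL15P the differences were -1.11, 0.59 and 1.29 at mean signals of 14.75, 13.63 and 9.45 in the other animals. The 3 RPLP0 probe sets gave 0.44, -0.28 and 0.98 at 14.77, 14.21 and 7.92. For RPL10, whose probe sets were both bright at 15.12 and 14.80, the differences were -1.83 and -0.62. The RPS3 probe sets gave -1.90, -0.54 and -0.14 at 14.62, 10.72 and 10.45. For these 4 genes the size of the difference, and for RPL15P and RPLP0 also its direction, varied with the probe set. Between the 2 brightest probe sets above the limit, the median r over 13 members was 0.091 with all animals and 0.315 without animal 5, against 0.343 and 0.407 over all 1315 genes with 2 such probe sets.

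**Figure D5:**
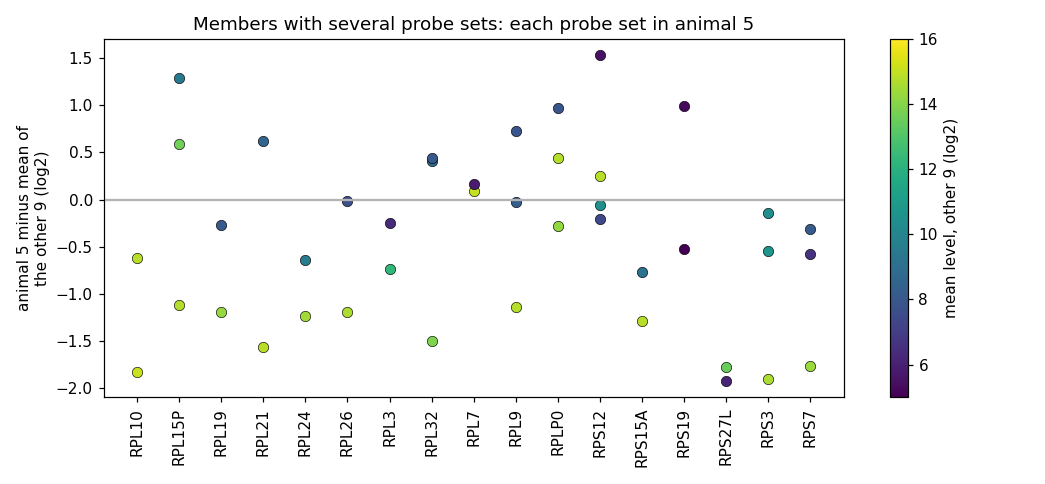
Difference between animal 5 and the mean of the other 9 animals, on the log2 scale, for every probe set of the 17 members that have more than 1. Colour gives the mean log2 signal in the other 9 animals. Probe sets of RPL15P lie between -1.11 and 1.29 and those of RPL10 at -1.83 and -0.62.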

How the data were processed

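The authors deposited a linear intensity for each probe set of each array. The software, the summary method and the scaling are not given in the sources used here. In the deposited intensities the mean of an array, trimmed by 2% at each end, was 500.18 to 500.20. All arrays were thus on a common trimmed mean, which is the deposited scaling. Per the labels' protocols, poly(A) RNA was labelled with biotin by the array maker's protocol. All 10 arrays were used, and their number limits the precision. The labels number the samples, and only the design text speaks of cattle, so separate animals are assumed. The poly(A) control difference was 2.80 in animal 5 and 1.09 to 1.38 in the others, and both subunit scores were lowest there. Slopes and p-values on these measures over all 10 animals thus mainly set the array of animal 5 against the rest. They hold no measure of the spread between animals at that end. The p-values of the other fits measure the spread between these samples.

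Intensities of the 24016 probe sets outside the 112 controls became log2(intensity + 16) and were quantile normalized, because the array medians spanned 0.24. A fold on this scale understates changes of dim genes. The platform annotation gave 1 symbol for 13292 of these probe sets, more than 1 for 86, and listed none for 10638. Genes with a mean above the median were tested. Fits used limma 3.58.1 in R 4.3.3 over all 6271 tested genes with Benjamini-Hochberg adjustment at 0.05, two-sided, and were tested on simulated data. A member of a score was fitted on the score without it, and score members were left out of background shares. All other ribosomal protein genes stayed in the background shares. The poly(A) measure is the mean over 8 pairs of control probe sets, and the hybridization measure that over 18 probe sets.

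The members and lists were chosen with earlier results of these data known. The genes named are the ends of mean, SD and slope within each subunit, the members of the role groups, the paralogs, and up to 4 genes per other list. Other genes in the text were chosen after their values were seen, as ends of the spread without animal 5, sets of calls and probe set examples. Alternatives were other scalings, pseudocounts of 1 and 64, other filters, averaging the probe sets of a gene, a covariate, another variance prior and leaving out each animal. Symbols of 65 of 65 members were in the ARS-UCD2.0 gene table, which was used for names only.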

Additional observations from a re-analysis of the deposited data

Results flagged for a closer look

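Of 42 named members, 26 had 1 animal that lay farther from the rest than Dixon's 95% limit allows, and so had both subunit means. That animal was number 5, apart from 2 members where it was number 6. Chance alone gives such a gap in about 1 of 20 groups of independent values. That rate does not apply to this count, because the genes share arrays and some were named for a large SD. Over all 63 tested members 43 (68.3%) had such a gap, against 16.7% of all 6271 tested genes.

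Among 40S genes the low value of animal 5 was 9.907 for RPS9, 11.17 for RPS28, 11.68 for RPS27L and 12.32 for RPS21. It was 12.72 for RPS3, 12.75 for RPS29, 12.87 for RPS6, 13.89 for RPS18 and 14.27 for RPS27. Among 60S genes it was 11.75 for RPL10A, 12.31 for RPLP2, 12.35 for RPL34, 12.41 for RPL14 and 12.58 for RPL8. For RPL36A it was 12.65, for RPL37A 12.86, for RPL39 13.04, for RPL19 13.06 and for RPL10 13.29. RPL22 stood at 13.45, RPL26 at 13.46, RPL35 at 13.6 and RPL13A at 14.86. The 40S mean deviation of -0.9796 and the 60S mean deviation of -0.7944 in animal 5 were set apart in the same way.

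RPL3L was set apart in the other direction, with 13.68 in animal 5. Animal 6 held a high value of RPS14, at 14.93, and of RPS26, at 15.03. All values are on the log2(signal + 16) scale after quantile normalization.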

How the results depend on the processing

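Pseudocounts, the filter at the 75th percentile and the trended variance prior kept all 70 slopes of named members past the threshold in the fits on the 40S score, the 60S score and the poly(A) control difference. Without 1 animal each, 60S genes that rose with the 40S score numbered 0 to 25, 40S genes that rose with the 60S score 0 to 15, and members that fell and rose with the poly(A) control difference 0 to 40 and 0 to 1. For the rises with either score and the falls, the 0 was reached without animal 5 only. The median SD of members was 0.15 to 0.42 and the median r of a 40S with a 60S gene 0.357 to 0.769, both lowest without animal 5. Without animal 5 and 1 other animal, chosen after seeing the data, they were 0.14 to 0.15 and 0.225 to 0.405. Without animal 5 and with centring on the median the SD was 0.21. Adding the poly(A) control difference to the model left 0 genes of the 60S and 0 of the 40S subunit that rose with the other subunit's score. The member that rose with the poly(A) control difference became 0 members with the deposited scaling, centring and no filter, and RPL3L was the gene. The cause was not tested.

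With that covariate the slopes of RPL22 (-0.22), RPL35 (-0.42) and RPS28 (-0.25) on the 40S score changed sign, as did those of RPL22 (-0.39), RPL35 (-0.22) and RPS28 (-0.37) on the 60S score. With 1 animal left out, slopes on the 40S score ran from -0.020 to 0.39 for RPL26 and -0.057 to 0.44 for RPL35. On the 60S score they ran from -0.0084 to 0.45 for RPL22 and -0.047 to 0.45 for RPL35. On the poly(A) control difference they ran from -0.39 to 0.072 for RPL26, -0.47 to 0.015 for RPL35, -0.64 to 0.010 for RPL39 and -0.11 to 0.31 for RPL3L. No paired analysis was possible because there is 1 group. Signal over background limits RPS19 and RPL37.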

Other observations

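Probe set names on this array carry a letter A or S, which the labels do not explain. Of the 17 member probe sets with the letter A, 12 lay above the test's limit and 1 had a mean log2 signal above 12, the single RPL3L probe set. Of the 73 with the letter S, 70 lay above the limit and 65 had a mean above 12.

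A dim RPS27L probe set, at 6.09 in the other animals, differed by -1.92 in animal 5, and the bright one by -1.77. The 4 RPS12 probe sets had SDs over 10 animals of 0.16, 1.05, 0.79 and 1.02 at mean signals of 14.86, 10.49, 7.38 and 5.64.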
